A study of Mus musculus with 32 samples.

Results

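Gene expression in the remnant mouse liver was compared between 2 h and 1 h after removal of 2/3 of the organ, to follow which of the changes present at 1 h were still present, had faded or had newly appeared at 2 h. The arrays were chosen by the time after surgery in their source name: 4 of the 32 arrays of the series, 2 at 1 h and 2 at 2 h. Mice in both groups were 10-week-old female CD-1 animals, an outbred stock. They were anaesthetised with ketamine and xylazine, and the 3 anterior lobes were tied off and removed together with the gallbladder through a midline laparotomy. Buprenorphine was given for pain. The reference was the time 0 group, 2 arrays of liver from unoperated females of the same stock and age, so the groups after surgery share anaesthesia, laparotomy and loss of the gallbladder in addition to loss of liver mass, and no sham-operated group was analysed here. RNA of 3 or more animals was pooled for every array (Affymetrix Mouse Genome 430 2.0), and the replicates of a group are separate pools. P-values therefore measure the spread between pools, not between single animals.

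As background, hepatocytes of the intact adult liver are quiescent, and loss of tissue brings them back toward the cell cycle through a priming phase. In that phase immediate early transcription factors such as Fos, Jun and Myc are transcribed without new protein synthesis, and their messages are short-lived. Tumour necrosis factor and interleukin 6, released largely by Kupffer cells, act through NF-kB and STAT3. At the same time the small remnant has to carry the metabolic work of the whole organ, and genes of glucose output and fasting are induced.

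Levels are given as deposited probe set intensities, for 18194 genes with 1 probe set each. Differences are on the scale of log2(intensity + 16), which understates the change of dim genes, and the median intensity over all arrays was 74.6. A gene is called changed where limma's moderated test, fitted to all 32 arrays, gave a Benjamini-Hochberg adjusted p below 0.05. Of these arrays 20 are of adult liver and 12 of embryonic liver, so the error of the test is pooled over both. The number of arrays limits the precision: the median standard error (SE) of a difference between groups was 0.24. Arrays that do not overlap are common with 2 in a group. Both 2 h arrays lay above both 1 h arrays in 18.8% of all genes and below them in 27%. In the text, a gene is said to have risen or fallen only where it was called. The tissue is bulk liver, in which fewer cells of a type and less RNA per cell cannot be told apart. The 10 hepatocyte markers were all above the median intensity on every array of time 0, 1 h and 2 h. The 2 h arrays carried a higher ratio of 3' to 5' probe sets, a measure of RNA integrity and labelling, than the 1 h arrays. For Actb this ratio was 1.45 and 1.74 on the log2 scale at 2 h against 1.18 and 1.18 at 1 h, and for Gapdh it was 0.197 and 0.325 against -0.282 and -0.174. At time 0 it was 0.791 and 1.03 for Actb and -0.226 and -0.33 for Gapdh. Of the 18 other adult arrays, 1 lay above the lower 2 h array for Actb and 2 for Gapdh. The part of this ratio in the differences of 2 h from 1 h and from time 0 was not tested.

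Between 1 h and 2 h only 2 genes changed: Phlda1 fell and Cbwd1 rose, which is 0.011% of the genes tested (0.0055% in each direction). Phlda1, a pleckstrin homology-like domain protein induced by growth factors and linked to cell death, read 906 and 1413 at time 0, 1885 and 1432 at 1 h, and 304 and 219 at 2 h. Both 1 h arrays lay above both time 0 arrays, the closest pair at 1432 and 1413. Both 2 h arrays lay far below all of them. The fall was 6.04-fold, -2.60 on the log2 scale (SE 0.31, 95% interval -3.23 to -1.96; limma adjusted p = 0.00068). At 6 h Phlda1 read 990 and 706, back near the range of time 0, so the low level was seen on the 2 h arrays and not on the earlier or the next later ones. Phlda1 was also called lower at 2 h against time 0 (-2.06, SE 0.31). It has 1 probe set, and the call was lost in a fit of the 6 arrays of time 0, 1 h and 2 h alone and in a fit of the adult arrays alone.

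Cbwd1 encodes a GTPase with a COBW domain. Its probe set read -5.19 and -6.94 at 1 h and 22.8 and 25.5 at 2 h, all under the median intensity. The difference of 1.33 (SE 0.22; limma adjusted p = 0.049) was therefore measured near the background of the array, and it was called in only 6 of 16 alternative settings.

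At an unadjusted p under 0.05, limma gave 1019 genes between the times (5.6% of those tested), 398 higher and 621 lower at 2 h. The count of calls rested in part on the 48 h arrays, which differed most among all pairs: the SD of the difference between them over genes was 0.748, against 0.367 at 1 h and 0.287 at 2 h. With the 48 h arrays left out of the fit, 3 genes were called higher and 9 lower at 2 h than at 1 h. Gadd45a joined the higher ones, and Gabrq, Cyp2d9, Lin28b and Slamf9 joined Phlda1 among the lower ones.

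Against time 0, 88 genes were called at 1 h (0.484% of those tested), 73 raised (0.401%) and 15 lowered (0.0824%). At 2 h 104 were called (0.572%), 81 raised (0.445%) and 23 lowered (0.126%). Called at both times, in the same direction, were 57 genes, 51 raised and 6 lowered. A further 31 were called at 1 h only and 47 at 2 h only. By the rule that a fading change must be called at 1 h and called in the opposite direction between the times, 0 of the 88 faded. By the same kind of rule 0 grew. The 2 changes that started between the times are Phlda1 and Cbwd1. For the other 31 genes called at 1 h only and 45 called at 2 h only, the difference between the times did not pass the test, so a place in these groups shows on which side of a threshold a gene lay and not that it differed between 1 h and 2 h.

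**Figure D1:**
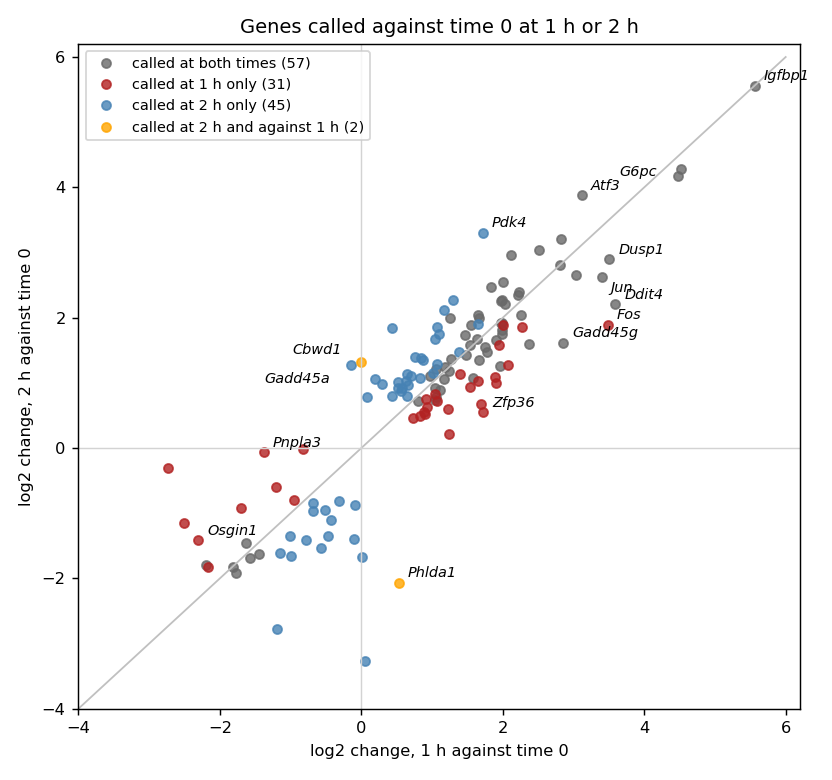
Genes called against time 0 at 1 h or at 2 h, by their log2 change at 1 h (horizontal axis) and at 2 h (vertical axis); each point is a gene, the colour gives the time at which it was called, and the diagonal marks equal change. Both axes use the same time 0 arrays. Igfbp1 lies on the diagonal at 5.56 on both axes, Fos, Ddit4 and Gadd45g lie below it, and Phlda1 lies apart at 0.53 and -2.06.

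The 73 genes raised at 1 h kept a median of 88.3% of their log2 change at 2 h, with a range from 17.4% to 158.6%. In 50 of them the 2 h mean was nearer to time 0 than the 1 h mean, and in 23 it was further away. Only 4 kept under 50% of the change: C9, Zfp36, Alas1 and Smad7. The 15 genes lowered at 1 h kept a median of 81.7%, from 1.55% to 111.9%, and 5 of them kept under 50%. Choosing genes at 1 h favours a high 1 h value, so the reverse choice was made too. The 81 genes raised at 2 h had a median of 87.7% of their change in place at 1 h, and 53 of them were further from time 0 at 2 h. The 23 genes lowered at 2 h had less in place at 1 h, a median of 56.0%, and 21 of them were further from time 0 at 2 h. These shares compare 2 times with the same time 0 arrays and are given without a test.

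Genes of glucose output and fasting held the largest rises, and these were as large at 2 h as at 1 h within the error. Igfbp1, the insulin-like growth factor binding protein secreted by the liver when insulin is low, read 44.8 and 244 at time 0, 5384 and 6520 at 1 h, and 5135 and 6810 at 2 h. All 4 arrays after surgery stood more than 10-fold above the higher time 0 array, and the 1 h and 2 h arrays overlapped. The difference between the times was 0.00 (SE 0.49), with a 95% interval of -1.03 to 1.02, so a change of up to 2-fold either way lies within the interval. G6pc, whose product releases free glucose from glucose 6-phosphate, read 236 and 152, then 4113 and 5364, then 3484 and 4606, and kept 94.9% of its rise. Ppp1r3g, a subunit that directs protein phosphatase 1 to glycogen, went from 24.4 and 64.9 to 988 and 1586 at 1 h and 828 and 1240 at 2 h. In both genes the 1 h and 2 h arrays overlapped as well.

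Of the 32 measured genes of the gluconeogenesis and fasting list, 8 rose at 1 h and 8 at 2 h, and 0 were called between the times. The median difference from 1 h to 2 h was -0.22, and 25 of 32 members were below 0, beside a median of -0.02 and 53.4% below 0 over all genes. The shift moved with the brightness of the genes. The 805 genes with intensities over 1000 had a median difference of -0.24, with 83.1% below 0. The 7734 genes up to 100 had 0.02, with 45.3% below 0. After quantile normalization, which gives every array the same distribution, the median of the list was -0.06. Pck1, the rate-limiting enzyme of gluconeogenesis, was not called at either time. Its time 0 arrays lay apart at 719 and 2222, and it read 4224 and 5036 at 1 h and 3761 and 4738 at 2 h. Irs2, the insulin receptor substrate that rises when insulin falls, kept its rise, from 26.0 and 56.3 to 169 and 258 and then 226 and 256.

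Pdk4 ran against most of that list. It encodes the kinase that shuts pyruvate dehydrogenase when fatty acids are burned. Its intensity was 46.0 and 46.8 at time 0, 104 and 336 at 1 h, 713 and 506 at 2 h, then 1975 and 1123 at 6 h. The 1 h arrays differed widely from each other, and both 2 h arrays lay above them. Pdk4 was not called at 1 h (1.72, limma adjusted p = 0.15), rose by 3.31 at 2 h (SE 0.46; limma adjusted p = 0.00046), and differed by 1.59 between the times (95% interval 0.62 to 2.55; limma adjusted p = 0.58). Ppargc1a, the coactivator that drives gluconeogenic and oxidative genes, read 65.4 and 70.5 at 1 h, 90.7 and 106 at 2 h, then 129 and 157 at 6 h. It was called against time 0 only at 6 h of these 3 times.

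Some genes of lipid handling, which form no fixed list, were called against time 0, and none of them between the times. Hilpda, a lipid droplet protein that restrains lipolysis, read 26.9 and 17.1 at time 0, 91.8 and 231 at 1 h, then 309 and 249 at 2 h, a rise called at both times. Mfsd2a, a transporter of lysophosphatidylcholine induced by fasting in liver, read 96.5 and 52.6, then 722 and 692, then 543 and 531, and kept 87.3% of its rise. Slc16a6, of the monocarboxylate transporter family, was called only at 2 h, at 81.7 and 92.2 after 24.6 and 51.4 at 1 h. In the fatty acid synthesis list of 20 measured genes, 1 was called at 1 h and 0 at 2 h. That gene was Pnpla3, a lipid droplet protein induced by feeding. It read 381 and 281 at time 0, 90.4 and 147 at 1 h, 294 and 330 at 2 h, then 109 and 158 at 6 h. Both 2 h arrays lay above both 1 h arrays and within the range of time 0, and the 6 h arrays were low again. The fall at 1 h was called (-1.38, SE 0.26; limma adjusted p = 0.01), while the difference of 1.31 from 1 h to 2 h was not (95% interval 0.77 to 1.85; limma adjusted p = 0.15). Srebf1, the transcription factor of lipogenesis, read 745 and 800 at 1 h and 846 and 804 at 2 h.

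The immediate early transcription factors did not move as a block. Of 34 measured members, 8 rose at 1 h and 7 at 2 h. From 1 h to 2 h, 19 were above 0 and 15 below, with a median difference of 0.03. Members below and above 0 are described in turn. Fos, a subunit of the AP-1 factor, read 70.6 and 47.3 at time 0, 820 and 804 at 1 h, 341 and 195 at 2 h, then 71.7 and 313 at 6 h. Both 2 h arrays lay between those of time 0 and 1 h, and Fos was called at 1 h (3.48, SE 0.53) but not at 2 h (1.89; limma adjusted p = 0.19). The difference between the times was -1.59, with a 95% interval of -2.70 to -0.48 (limma adjusted p = 0.69). Jun, its partner in AP-1, read 823 and 881 at 1 h and 509 and 471 at 2 h, from 87.2 and 49.5 at time 0. Myc, a driver of growth and ribosome production, read 461 and 417, then 258 and 241, from 62.5 and 81.7. Jun and Myc rose at both times, with no overlap between the 1 h and 2 h arrays, and kept 77.1% and 67.3% of the change. The probe sets of Jun disagreed in the sign of the difference between the times.

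Egr1 and Ier2, which are usually among the first genes to respond, were not called at either time. Egr1 read 434 and 425 at time 0, 975 and 952 at 1 h, and 757 and 529 at 2 h. Ier2 read 284 and 226, then 793 and 645, then 472 and 282. Other members were higher at 2 h. Atf3, a stress-induced factor that forms dimers with Jun, read 26.9 and 20.8 at time 0, 222 and 484 at 1 h, and 641 and 508 at 2 h, and Maff, a small Maf protein, read 39.0 and 48.8, 118 and 134.97, and 241 and 203. Both rose at both times, and both 2 h arrays lay above both 1 h arrays. Their differences of 0.77 and 0.74 between the times did not pass the test. Ets2, a target of growth factor signalling that is not on this list, read 180 and 246 at 1 h and 433 and 361 at 2 h. It was called at 2 h only. Klf10, induced by TGF-beta, had its lowest arrays at 1 h, 41.2 and 91.2, against 93.6 and 123 at time 0 and 147 and 164 at 2 h. It was called at neither time.

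**Figure D2:**
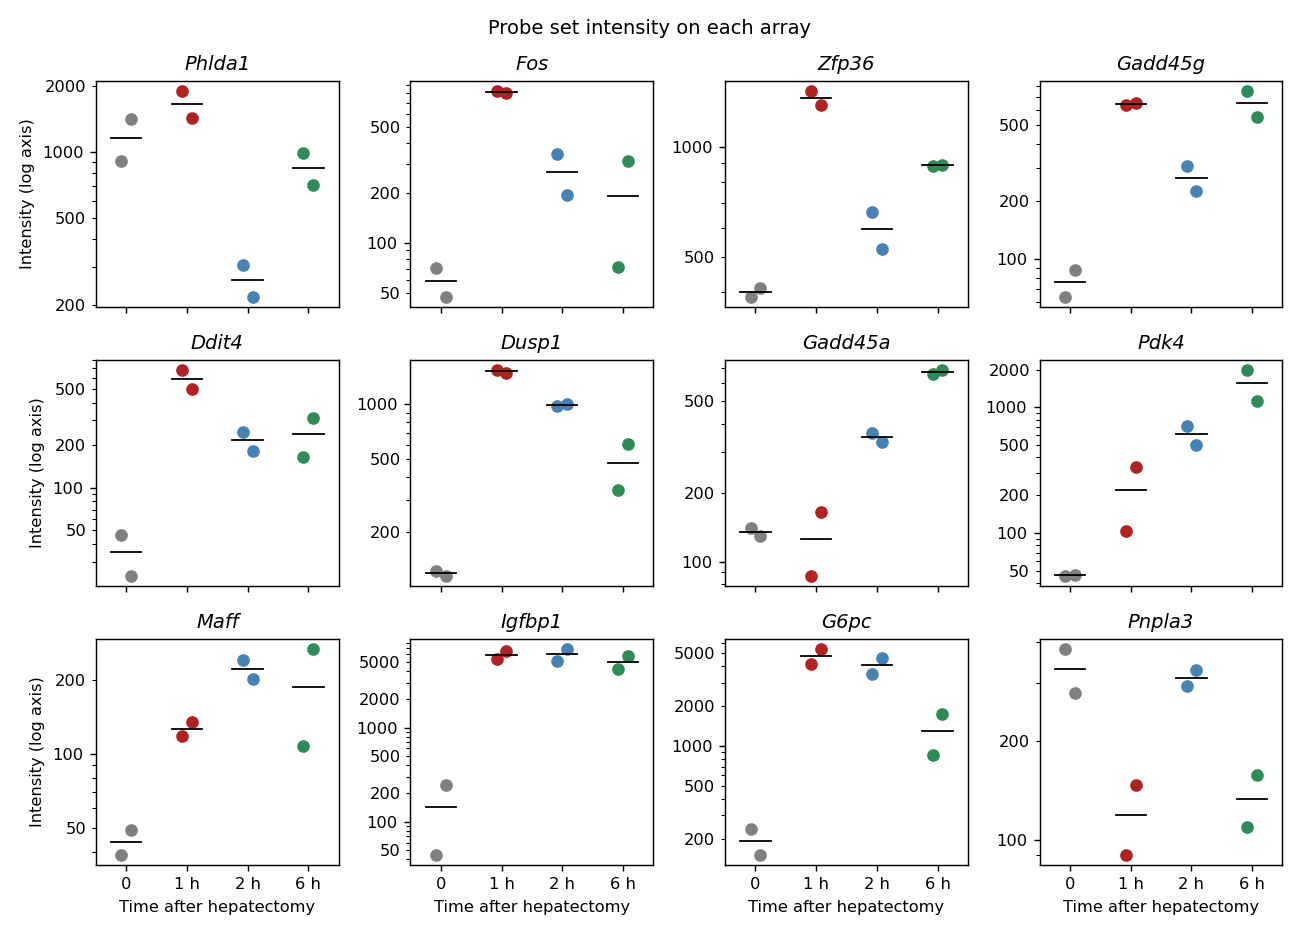
Intensity of 12 genes on each array at time 0 and at 1, 2 and 6 h after hepatectomy, on a log axis whose range differs between genes; points are arrays and bars are means of 2. Phlda1 was low on both 2 h arrays only, Fos, Zfp36, Gadd45g, Ddit4 and Dusp1 were highest at 1 h among time 0, 1 h and 2 h, Gadd45a, Pdk4 and Maff were highest at 2 h among these, and Igfbp1 and G6pc overlapped between 1 h and 2 h.

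Feedback inhibitors of these signals were among the genes that stayed raised. Dusp1, the phosphatase that inactivates stress-activated MAP kinases, read 123 and 115.4 at time 0, 1539 and 1495 at 1 h, and 974 and 1003 at 2 h. It kept 82.6% of its rise, with a difference of -0.61 (95% interval -1.22 to just below 0; limma adjusted p = 0.89) and no overlap between the times. Sik1, a kinase that restrains cAMP signalling, read 175 and 206 at 1 h and 264 and 353 at 2 h, from 52.8 and 32.8, although its probe sets disagreed in sign between the times. Errfi1, an inhibitor of the epidermal growth factor receptor, read 1281 and 1998, then 4841 and 5301, then 2894 and 3729, and was called at 1 h only. Of the 20 genes of this list, 3 rose at 1 h and 3 at 2 h, and 0 were called between the times.

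The promoters of genes raised after surgery were read for 7 short motifs in the 250 bases before the start site (RefSeq, build GRCm38.p6), without a test. Of the 73 genes raised at 1 h, 60 had a promoter in the table, and 7 of these (11.7%) held the cAMP response element TGACGTCA, the palindrome bound by CREB and ATF proteins, against 1.77% of all 27025 genes with a promoter. Among genes raised at 2 h it was 7 of 67 (10.4%). Genes that stayed raised had it in 4 of 41, genes raised at 1 h only in 3 of 19 and genes raised at 2 h only in 3 of 26, so the element was not confined to one course. The AP-1 motif TGANTCA, read on both strands, was in 2 of 60 promoters of genes raised at 1 h (3.33%) and in 7.82% of all. The element TGACGTCA holds no match to TGANTCA. An NF-kB site was in 7 of 60 genes raised at 1 h (11.7%) and in 4.46% of all. The EGR motif GCGTGGGCG was in 3 of 60 (5.0%) and in 0.622% of all. Among genes raised at 2 h these shares were 5.97% and 4.48%. The STAT motif TTCNNNGAA was in 8.33% of genes raised at 1 h and 8.13% of all, and the CArG box in 1.67% and 1.62%. The motif CACGTG, an E-box, was in 8 of 41 genes that stayed raised (19.5%), 0 of 19 raised at 1 h only, 4 of 26 raised at 2 h only (15.4%) and 6.86% of all. The promoters of 4 genes are shown because they hold the same element, in capitals, while their genes were called differently against time 0: Dusp1 and Maff rose at both times, Ppp1r15a, a phosphatase subunit of the stress response, was called at 2 h only, and Pnpla3 was lowered at 1 h. None of the 4 was called between the times. They lie at chr17:26508473-26508722 on the minus strand, chr15:79347270-79347519 on the plus strand, chr7:45526269-45526518 on the minus strand and chr15:84167566-84167815 on the plus strand, and each is printed 5′ to 3′ toward the start site.
Dusp1: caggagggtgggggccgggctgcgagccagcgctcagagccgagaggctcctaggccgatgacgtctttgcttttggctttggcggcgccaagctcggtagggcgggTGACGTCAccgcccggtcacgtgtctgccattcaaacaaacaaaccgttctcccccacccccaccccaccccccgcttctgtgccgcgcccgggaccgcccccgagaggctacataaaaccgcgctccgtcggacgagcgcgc
Maff: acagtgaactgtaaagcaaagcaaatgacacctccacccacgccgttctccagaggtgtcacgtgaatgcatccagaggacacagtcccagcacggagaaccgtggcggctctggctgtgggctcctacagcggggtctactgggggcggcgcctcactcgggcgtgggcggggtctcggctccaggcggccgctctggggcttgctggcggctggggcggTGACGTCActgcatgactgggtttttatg
Ppp1r15a: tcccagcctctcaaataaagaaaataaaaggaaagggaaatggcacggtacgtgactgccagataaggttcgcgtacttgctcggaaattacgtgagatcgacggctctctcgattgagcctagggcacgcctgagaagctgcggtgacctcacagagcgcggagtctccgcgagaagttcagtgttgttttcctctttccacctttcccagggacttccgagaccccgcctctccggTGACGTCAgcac
Pnpla3: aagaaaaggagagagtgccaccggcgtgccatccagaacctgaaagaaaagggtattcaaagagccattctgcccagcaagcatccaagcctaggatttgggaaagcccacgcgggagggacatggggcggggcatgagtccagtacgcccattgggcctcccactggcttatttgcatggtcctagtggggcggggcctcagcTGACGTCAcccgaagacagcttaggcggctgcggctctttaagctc
The element starts at position -143 in Dusp1, -29 in Maff, -12 in Ppp1r15a and -46 in Pnpla3, counted from -1 at the base before the start. A match is a description of the sequence and does not show binding.

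Genes that restrain division did not share a course. Of 21 measured genes for mRNA decay and growth arrest, 7 rose at 1 h and 5 at 2 h. The cell cycle inhibitor p21, encoded by Cdkn1a, read 52.3 and 33.4 at time 0, 266 and 370 at 1 h, 458 and 460 at 2 h, then 807 and 642 at 6 h, and rose at all 3 times. Gadd45a and Gadd45g, related stress proteins, differed in opposite directions from 1 h to 2 h, though neither was called between the times. Gadd45a read 140 and 130 at time 0, 87.2 and 164.7 at 1 h, and 366 and 332 at 2 h, and Gadd45g read 63.8 and 88.4, 634 and 652, and 306 and 227. Gadd45a was not called at 1 h and rose at 2 h (1.27, SE 0.28), and Gadd45g rose at both times and kept 56.6% of its change. The differences between the times were 1.42 for Gadd45a (95% interval 0.83 to 2.01; limma adjusted p = 0.15) and -1.24 for Gadd45g (-1.88 to -0.60; limma adjusted p = 0.34). At 6 h Gadd45g was back at 749 and 551, and Gadd45a had reached 661 and 683.

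Zfp36, which binds AU-rich elements and speeds the decay of early messages, was called at 1 h only. It read 388 and 409 at time 0, 1417 and 1297 at 1 h, 663 and 525 at 2 h, then 886 and 891 at 6 h, and kept 31.7% of its 1 h change. The difference of -1.18 between the times did not pass the test (95% interval -1.92 to -0.44; limma adjusted p = 0.59). Its relative Zfp36l1 kept its rise, at 1646 and 1477 and then 1543 and 1723. Ddit4, an inhibitor of the growth kinase mTORC1, rose at both times, from 46.0 and 23.9 to 678 and 503 and then 249 and 183. Its 2 h arrays lay between the other groups, with a difference of -1.38 (95% interval -2.14 to -0.63; limma adjusted p = 0.4).

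Members of the interleukin 6, STAT3 and acute phase list were mostly lower at 2 h: 27 of 33 were below 0, with a median of -0.20 and 0 called. Over all genes 53.4% were below 0, and among genes with intensities over 1000 it was 83.1%. Of the 33 members, 17 had intensities over 1000. After quantile normalization the median was -0.03, near the value over all genes. The inducible inhibitors of cytokine signalling were mixed: Socs1 differed by 0.38 between the times, and Socs2, Socs3 and Cish by -0.55, -0.94 and -0.72. Socs3, the STAT3 feedback inhibitor, read 288 and 505 at time 0, 542 and 695 at 1 h, 337 and 290 at 2 h, then 1780 and 1225 at 6 h, and Cish, induced by STAT5, read 295 and 298, 382 and 414, 238 and 233, and 329 and 282. Both 2 h arrays of each gene lay below both 1 h arrays. Neither was called at 1 h or 2 h against time 0, and the differences between the times were -0.94 (limma adjusted p = 0.69) and -0.72 (limma adjusted p = 0.15).

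Saa1 and Saa2, the serum amyloid A proteins of the acute phase, fell in this interval after surgery and rose only later. Saa1 read 1563 and 1968 at time 0, 1013 and 605 at 1 h, and 562 and 571 at 2 h, and then 7251 and 5263 at 6 h. It was called lower at 2 h only, and Saa2 at both times. Lcn2, lipocalin 2, read 247 and 109 at 1 h, 144 and 111 at 2 h, then 5093 and 1877 at 6 h. C9, the last component of the complement attack complex and a member of the plasma protein list, had risen at 1 h to 2155 and 2785 and read 1506 and 943 at 2 h, where time 0 was 949 and 1105. It kept 17.4% of its change, the least of any gene raised at 1 h, though its 1 h call held in only 7 of 17 alternatives.

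The NF-kB targets and chemokines leaned the other way, with 24 of 30 members higher at 2 h and 5 lower, a median of 0.20, and 0 called at either time or between them. Against time 0 the median was -0.15 at 1 h and -0.01 at 2 h, so the median at 2 h lay near that of time 0. The median difference between the times stayed between 0.13 and 0.23 in the 17 alternatives run. This list is dim, with a median intensity of 103. Over all genes 53.4% were below 0 between the times, with 45.3% for intensities up to 100 and 53% from 100 to 300. Nfkbiz, an atypical IkB protein, read 163 and 168 at time 0, 81.5 and 75.3 at 1 h, and 152 and 144 at 2 h. Cxcl2, a neutrophil chemokine, read 16.6 and 23.6, then 27.9 and 45.7, then 73.8 and 72.0. Both genes had all 2 h arrays above all 1 h arrays, with differences of 0.80 and 0.77 (limma adjusted p = 0.59 and 0.82). The main inhibitor Nfkbia read 1087 and 1043 at 1 h and 1071 and 1087 at 2 h. Cd14, the endotoxin co-receptor, read 86.0 and 98.6 at 1 h, 134 and 191 at 2 h, then 1156 and 629 at 6 h. The probe sets of Nfkbiz disagreed in the sign of this difference.

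Among 12 measured neutrophil markers, 7 were lower at 2 h than at 1 h and 5 higher, with a median difference of -0.02. S100a8 and S100a9, calcium-binding proteins abundant in neutrophils, were called raised at 2 h only. S100a8 read 59.7 and 79.9 at time 0, 230 and 132 at 1 h, 265 and 472 at 2 h, then 578 and 597 at 6 h. S100a9 read 113 and 115.2, then 325 and 203, then 360 and 572, and then 784 and 768. The 2 h arrays of both lay above the 1 h arrays. Of the 12 markers, 2 were called at 2 h, namely these, and 0 at 1 h. The summed intensity, of which these 2 are a large part, was 1114 and 1207 at time 0, 1635 and 1402 at 1 h, and 1602 and 2103 at 2 h, so the times overlapped. Cxcr2, the chemokine receptor of neutrophils, read 46.1 and 64.2 at 1 h and 33.3 and 14.4 at 2 h, the opposite direction.

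A few enzymes of amino acid breakdown, taken from different lists after their values were seen, read lower at 2 h than at 1 h. Tat, tyrosine aminotransferase, read 1099 and 1093 at time 0, 5230 and 5489 at 1 h, and 3591 and 4493 at 2 h. Got1, the aspartate aminotransferase of the cytosol, read 658 and 761, then 2423 and 3218, then 1640 and 1785, and rose at both times. Oat, ornithine aminotransferase, read 1109 and 1282, then 2274 and 2227, then 1807 and 1650. Tat and Oat were called at 1 h only, and these calls held in 5 and 10 of 17 alternatives. Alas1, the first enzyme of heme synthesis, was called at 1 h only as well, with 987 and 633, then 2062 and 3237, then 1134 and 1437, and kept 40.3% of its change. These genes had no overlap between the 1 h and 2 h arrays, as had 27% of all genes in this direction. Their differences of -0.38 to -1.01 did not pass the test. Tat, Got1 and Oat had mean intensities over 1000. Among all genes over 1000 the median difference was -0.24, with 83.1% below 0, and quantile normalization brought that median to -0.003.

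Of the 24 measured genes of the urea cycle and amino acid catabolism, 1 rose at 1 h and 0 at 2 h. Their median difference from 1 h to 2 h was -0.37, with 21 below 0. For 25 drug and steroid cytochrome P450 genes it was -0.38 with 22 below 0, and for 22 bile acid genes -0.23 with 19 below 0. The share below 0 was 53.4% over all genes, 67.4% for intensities from 300 to 1000 and 83.1% over 1000. None of their members were called between the times. These lists hold bright genes: 18, 16 and 4 members had intensities over 1000. Quantile normalization reduced the medians to -0.15, -0.14 and -0.10. Cyp2d9, a steroid hydroxylase, stood out: it read 562 and 494 at time 0, 757 and 1037 at 1 h, 356 and 229 at 2 h, then 596 and 680 at 6 h. Both 2 h arrays were below all arrays of time 0, 1 h and 6 h, and the difference was -1.58 (SE 0.32, 95% interval -2.24 to -0.92; limma adjusted p = 0.15). Cyp7a1, the rate-limiting enzyme of bile acid synthesis, read 495 and 1116 at 1 h and 332 and 349 at 2 h, with time 0 at 626 and 264. Cyp2c23, an arachidonic acid epoxygenase, fell at 2 h against time 0, from 865 and 1162 to 151 and 117, after 612 and 301 at 1 h.

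**Figure D3:**
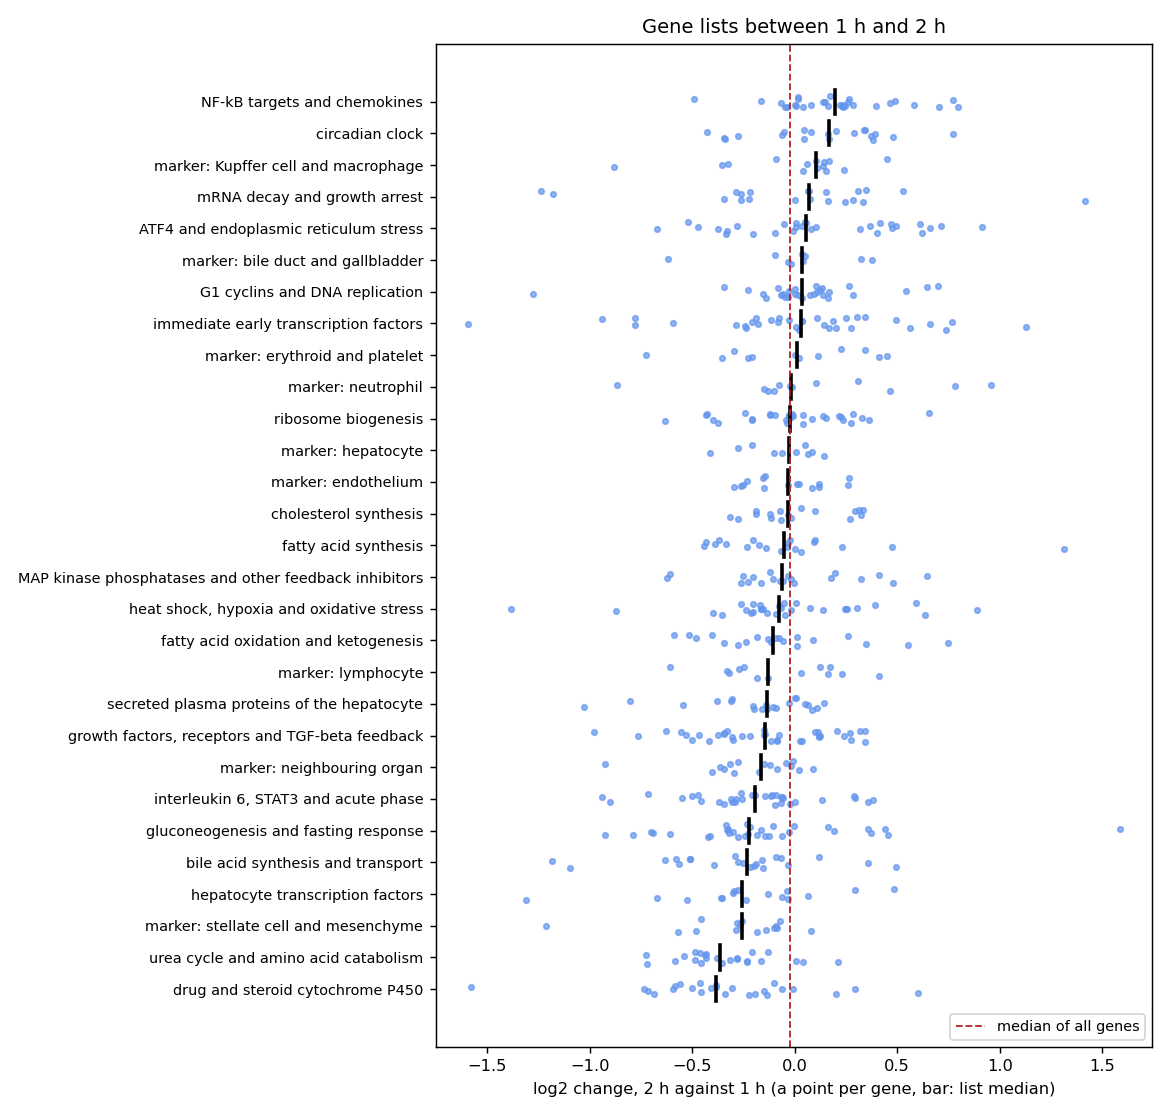
Log2 difference from 1 h to 2 h of the members of 29 gene lists, ordered by median; points are genes (their vertical spread has no meaning), black bars are medians, and the dashed line is the median of all genes at -0.02. No member of any list was called; the medians run from -0.38 for drug and steroid cytochrome P450 genes to 0.20 for NF-kB targets and chemokines.

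Some transcription factors of the hepatocyte were lower at 2 h too. Of 16 measured members of that list 13 were below 0, beside 53.4% of all genes. The median was -0.26, which quantile normalization reduced to -0.09. Hhex, a homeobox factor of liver development, read 446 and 460 at time 0, 880 and 869 at 1 h, 388 and 304 at 2 h, then 100 and 167 at 6 h. Its 1 h arrays stood above all the others and its level was called lower than time 0 at 6 h. The difference from 1 h to 2 h was -1.31 (95% interval -1.93 to -0.68; limma adjusted p = 0.22). Foxa2, a pioneer factor of the liver in the fasting list, read 301 and 204 at 1 h and 107 and 142 at 2 h. Foxq1, another forkhead factor, read 397 and 595 at time 0, 807 and 910 at 1 h, and 335 and 323 at 2 h (limma adjusted p = 0.16), and was called between the times when a constant of 64 was added before the log.

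The circadian clock list held 20 measured genes, of which 4 rose and 2 fell at 1 h, and 3 rose and 2 fell at 2 h. The median difference between the times was 0.17, with 14 above 0. The time of day of the operations was not used here. Cry1, a repressor of the clock, read 77.8 and 43.2 at time 0, 201 and 231 at 1 h, 192 and 258 at 2 h, then 85.4 and 75.1 at 6 h. Nr1d1 and Nr1d2, the REV-ERB repressors, fell. Nr1d1 read 109 and 160, then 29.7 and 29.5, then 61.4 and 62.4, and was called at 1 h only. Nr1d2 read 426 and 469, then 131 and 136, then 170 and 136, and was called at both times. Both were near time 0 again at 6 h, Nr1d1 at 118 and 193 and Nr1d2 at 375 and 516. Nfil3 and Bhlhe40 rose at both times, and Clock at 1 h only. The 1 h calls of Nfil3, Bhlhe40 and Clock held in 10, 9 and 6 of 17 alternatives. The 2 h calls of Nfil3 and Bhlhe40 held in 15 and 14. The probe sets of Clock disagreed in the sign of the difference between the times.

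Among genes of TGF-beta feedback, Smad7 and Skil were called at 1 h, and neither was called between the times. Smad7, the inhibitory Smad, rose at 1 h to 179 and 194 from 76.2 and 65.3, and read 118 and 112 at 2 h and 54.0 and 55.9 at 6 h. It kept 48.8% of its change (difference -0.63, 95% interval -1.02 to -0.24; limma adjusted p = 0.59). Skil, the SnoN repressor of Smads, was called at both times, at 386 and 674 and then 587 and 659 from 142 and 97.6, and Fst, which binds activin, read 97.4 and 104.7 and then 108 and 86.8 from 24.6 and 27.5. The probe sets of Fst, like those of Nfkbia, Nr1d2 and Pck1, disagreed in the sign of the difference between the times. Ccn2, a matricellular target of TGF-beta and YAP, read 61.8 and 91.3 at time 0, 182 and 182 at 1 h, and 82.6 and 86.4 at 2 h, and was not called. Of the 37 measured genes of growth factors, receptors and TGF-beta feedback, 2 rose and 1 fell at 1 h, 1 rose at 2 h, and 23 were lower at 2 h than at 1 h.

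Markers of stellate cells and mesenchyme were lower at 2 h in 14 of 15 measured genes, beside 53.4% of all genes. Their median was -0.26, and -0.19 after quantile normalization, with 0 called. Their summed intensity was 3487 and 3920 at time 0, 4819 and 5121 at 1 h, and 3699 and 3938 at 2 h, so the 1 h arrays were high and the 2 h arrays overlapped time 0. The proteoglycan Dcn contributed much of this, at 768 and 980, 1683 and 1611, and 1048 and 1165, although its 2 probe sets disagreed in the sign of the difference between 1 h and 2 h. Col1a1, the main fibrillar collagen, was dim throughout, at 25.3 and 43.4 at 1 h and 5.70 and 5.10 at 2 h. Hepatocyte markers summed to 74600 and 78280 at 1 h and 66830 and 84420 at 2 h, and markers of Kupffer cells, endothelium, bile duct, lymphocytes and erythroid cells had list medians between -0.13 and 0.11. Markers of neighbouring organs were below 0 in 14 of 16, with a median of -0.16.

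Changes that fell below time 0 had courses of their own, and the genes named here, other than Neat1, were chosen after their values were seen. Osgin1, an oxidative stress-induced growth inhibitor, read 638 and 711 at time 0, 124.5 and 123 at 1 h, and 253 and 233 at 2 h, and was called at 1 h only. Derl3, of endoplasmic reticulum-associated degradation, read 184 and 194, then 52.1 and 13.5, then 40.5 and 45.9, and fell at both times. Neat1, the nuclear scaffold RNA of paraspeckles, fell from 872 and 858 to 175 and 332 and then 209 and 225, and was still low at 6 h, at 192 and 120. Among those called at 2 h only, Nab2, a corepressor of EGR factors, read 152 and 181, then 91.2 and 88.2, then 54.6 and 51.2, then 14.9 and 21.9 at 6 h. Slamf9, an immune receptor of the SLAM family, read 130 and 147 at time 0, 179 and 116 at 1 h and 0.222 and -32.9 at 2 h. Since its 2 h readings lay at background, the size of the difference depends on the added constant, and its call at 2 h held in 6 of 17 alternatives.

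Genes called as raised at 2 h only included Slc2a1, the glucose transporter GLUT1, at 150 and 136 and then 230 and 231 from 99.2 and 60.4, and Actg1, cytoplasmic actin, at 1883 and 2714 and then 3173 and 3415 from 1270 and 1233. In both, the 1 h arrays already lay above time 0 and the 2 h arrays lay above the 1 h arrays. In all, 23 of the 30 genes raised at 2 h only had both 2 h arrays above both 1 h arrays, and 18 of the 22 raised at 1 h only had both below. Over all genes these shares were 18.8% above and 27% below. Since the groups were chosen by calls at one time and not the other, these counts are given as a description.

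The arrays at 6 h gave a later reading against the same time 0 arrays. Their values set none of the means compared at 1 h and 2 h, though like all 32 arrays they entered the pooled error of the fit. The groups below were chosen by calls against the same time 0 arrays. An error in the time 0 mean that favours such a call also favours a call at 6 h, so the counts are a description. Of all genes 2.12% were called at 6 h, 1.06% higher and 1.06% lower. Of the 51 genes raised at both 1 h and 2 h, 39 were called higher at 6 h, and of the 30 raised at 2 h only, 20 were. Of the 22 raised at 1 h only, 5 were. The median log2 change at 6 h was 1.65, 1.00 and 0.87 in these groups. Of the 17 genes lowered at 2 h only, 6 were called lower at 6 h, and 1, Saa1, higher.

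**Figure D4:**
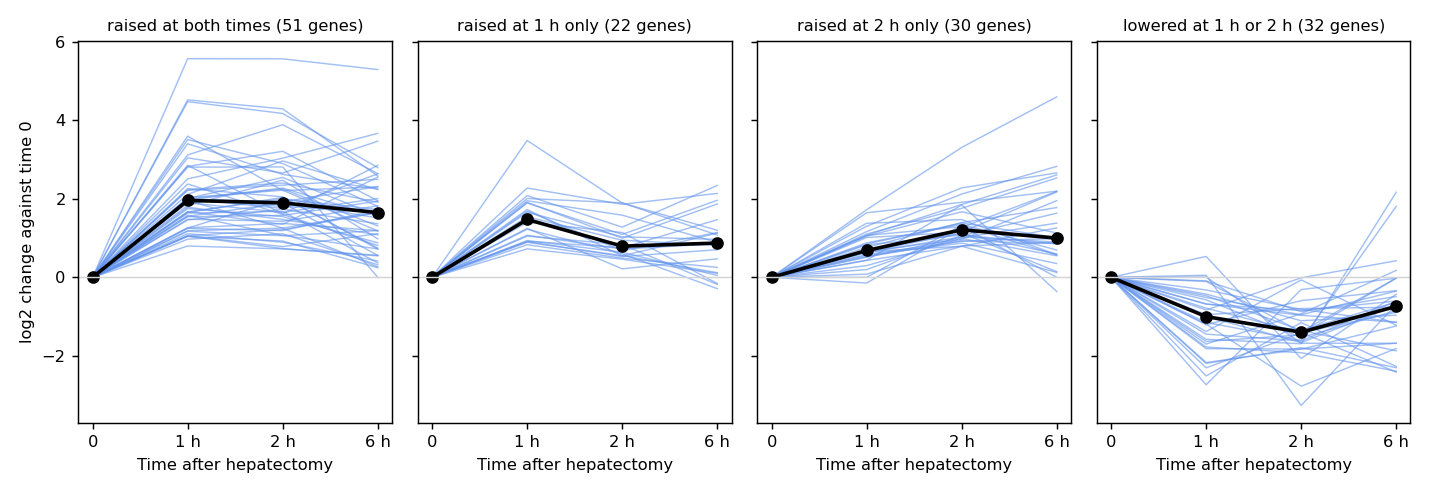
Log2 change against time 0 at 1, 2 and 6 h for genes raised at both early times, at 1 h only, at 2 h only, and lowered at either; thin lines are genes, black points are medians, and the time axis is not to scale. Medians of the 22 genes raised at 1 h only go from 1.47 at 1 h to 0.79 at 2 h, those of the 30 raised at 2 h only from 0.68 to 1.21, and those of the 51 raised at both stay at 1.96 and 1.9.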

How the data were processed

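Total liver RNA (6 microg per pool) was labelled as biotinylated cRNA, per the labels' protocols. The authors deposited linear intensity values, 1 for each probe set and array; which software, background correction and normalization made them is not given in the sources used here. Negative values were replaced by 0 before taking log2(value + 16). Of 45101 probe sets, 34958 were listed with 1 gene, giving 18194 genes, each read by its probe set of highest mean.

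Group means of 32 arrays in 16 groups of 2 were fitted with limma 3.58.1 in R 4.3.3 (eBayes with trend; 16 residual and 4.72 prior degrees of freedom). Benjamini-Hochberg adjustment was done in each contrast separately, with calls at 0.05. A 1 h change faded if called at 1 h and called in the opposite direction between the times. It persisted if called in the same direction at both times and not called between them. The code was tested on simulated data. Alternatives covered the added constant, probe set choice, quantile normalization, a level filter, the arrays fitted, the variance trend, a replicate block and leaving out each array.

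Named by rule were up to 12 rises and 12 falls between 2 h and 1 h, called genes first and then those of smallest p, up to 10 each of the persisted, started and grown changes, up to 4 genes of smallest p per list, and a set of 35 known genes. Other genes called against time 0 were named after their values were seen. The members and the 29 lists were chosen with earlier results of these data known. Of 678 listed symbols, 617 were measured.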

Additional observations from a re-analysis of the deposited data

How the results depend on the processing

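The small number of calls between 2 h and 1 h (1 higher, 1 lower) depended on the fit. With an added constant of 64, 2 were higher, 4 lower and 2 changes faded; with a constant of 4, 3 were lower and 4 started. The mean of a gene's probe sets gave 3 lower and 1 faded, and no variance trend gave 2 lower. Quantile normalization, and testing only genes above the median of all values, each gave 0 higher and 1 started. Without the 48 h arrays 3 were higher, 9 lower, 1 faded, 7 started and 172 were called at 1 h. Fitting only the arrays of time 0, 1 h and 2 h left fewer residual degrees of freedom and gave 0 higher and 0 lower, 0 started, 11 called at 1 h, 18 at 2 h and 6 persisted; limma gave 1733 genes at an unadjusted p under 0.05 between the times. The adult arrays alone gave 0 and 0, 0 started, 33, 40 and 21 persisted, with 908 at an unadjusted p under 0.05. The cause was not tested.

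Leaving out each array of time 0, 1 h or 2 h in turn gave 0 to 2 higher, 1 to 3 lower, 45 to 131 called at 1 h, 46 to 98 at 2 h, 31 to 58 persisted, 0 to 2 faded and 1 to 3 started. The extremes at 1 h were 45 without replicate 2 of 1 h and 131 without replicate 2 of time 0; at 2 h they were 56 and 46 without replicate 1 and replicate 2 of 2 h. A replicate block gave 3 lower, 1 higher, 56 persisted and 3 started. Array differences within 1 h and 2 h correlated at -0.022. The difference within time 0 correlated at 0.19 with that of 1 h and at -0.03 with that of 2 h. Whether pools of the same replicate number share a source of variation was not tested. The direction of Dhx38 at 2 h against time 0 turned to -0.16 without ambiguous probe sets. Phlda1 was called in 15 of 17 alternatives, at -2.82 to -2.36. The medians of the lists for fatty acid synthesis, fatty acid oxidation, cholesterol synthesis, plasma proteins, hepatocyte markers, and heat shock, hypoxia and oxidative stress changed sign under quantile normalization.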

Other observations

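Several genes belong to none of the lists described above, and none of them passed the test between 1 h and 2 h. Gabrq, a subunit of the GABA-A receptor, read 300 and 234 at time 0, 556 and 362 at 1 h, 164 and 129 at 2 h, then 426 and 345 at 6 h, so the 2 h arrays were the lowest of the 4 times (difference -1.53, limma adjusted p = 0.098). Arid5b, a DNA-binding coactivator, read 180 and 240, then 281 and 343, then 179 and 164.8, and all 5 of its probe sets were lower at 2 h. Ugt2b37, a glucuronosyltransferase, ran the other way, at 272 and 235 at time 0, 145.3 and 158 at 1 h, 431 and 407 at 2 h, then 138 and 310 at 6 h. Mtmr12, a myotubularin-related protein, read 33.3 and 27.9 at 1 h and 90.0 and 84.9 at 2 h.

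Of the 12 genes of smallest p that were higher at 2 h than at 1 h, 2 were called higher and 1 lower than time 0 at 6 h. Of the 12 that were lower at 2 h, 0 were called higher and 2 lower. Over all genes 1.06% were called higher and 1.06% lower at 6 h. In these sets only Cbwd1 and Phlda1 were called between 1 h and 2 h.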
